A study of Caenorhabditis elegans with 58 samples.

Results

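With both generations pooled, wild-type worms descended from a cross with *set-2* mutant mothers held 2.97-fold less RNA of 1 F-box gene, *fbxa-192*, than worms of control descent, and *fbxa-192* was the single gene called of 15472 tested. The comparison set wild-type descendants (WT-des) against wild-type controls (WT-ctrl), with the F3 and F5 generations pooled. It used 15 of the 58 libraries of the series, chosen by their titles: 8 WT-des libraries, 4 at F3 and 4 at F5, and 7 WT-ctrl libraries, 4 at F3 and 3 at F5. WT-ctrl F5 replicate 2 was left out for its depth of 1.27 M counts. RNA was sequenced from pooled *Caenorhabditis elegans* at the mid-L4 larval stage, grown at 20°C.

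WT-des lines carried the wild-type *set-2* gene and were derived from wild-type (N2) males mated to *set-2(zr1208)* hermaphrodites, *zr1208* being an allele with 1 changed residue in the SET domain. MUT-des lines were the mutant homozygotes of the same cross and are given beside the WT-des values, from 6 libraries, 3 at each generation. WT-ctrl lines came from wild-type males mated to wild-type hermaphrodites. The descendants that were sequenced came from a single cross, so the spread between lines does not cover the spread between crosses. The hermaphrodites used for crossing carried *oyIs14*, a GFP reporter driven by the *sra-6* promoter that the strain list places on chromosome V, and the F2 animals were singled from broods in which it segregated. Whether the lines of both descents carry it alike is not given in the sources used here. The sources used here also leave unsaid if a line sampled at F3 was sampled again at F5. Descent cannot be told apart from a difference in strain background in these data. A further experiment without a cross is used for the leading genes: 8 libraries of F1 L4 progeny from 1-day-old adults, either *set-2* mutant or wild type.

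SET-2 is the worm homologue of the COMPASS methyltransferases, which place methyl groups on lysine 4 of histone H3 (H3K4), a mark found at the promoters of active genes. In worms, loss of COMPASS subunits is known to change germline gene expression over generations, and parts of the mark can pass through the germline into the embryo. The question behind the comparison is whether a mutation carried by an ancestor leaves a trace in the transcriptome of descendants that no longer carry it. Pooling the generations raises the number of libraries behind each difference, and it favours differences that F3 and F5 share.

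Depth ran from 18.8 to 25.7 M counts per library in WT-des and from 14.1 to 20.6 M in WT-ctrl, so the descendants were sequenced somewhat more deeply. The median standard error of a gene's difference was 0.158 on the log2 scale over all genes, and 0.14 over the 12125 genes that averaged 50 counts or more. The *set-2* gene held 0 to 3 counts per library under its own name and could not be tested. Since *zr1208* changes a residue and deletes nothing, its level would not check the labels in any case. The libraries are numbered as biological replicates and those of a group are described as separate lines. The pooled test treats the F3 and F5 libraries as independent, so each p-value measures the spread between these libraries within their descent.

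*fbxa-192* fell in WT-des. It encodes an F-box protein, a family whose members bring target proteins to SCF ubiquitin ligases. Levels are given as CPM, which are counts scaled by library size, here corrected for library composition with TMM factors. In the 4 WT-ctrl F3 libraries *fbxa-192* stood at 4.45, 5.05, 6.46 and 5.26 CPM, and in the 4 WT-des F3 libraries at 1.9, 1.62, 2.41 and 1.29 CPM. At F5 it stood at 4.92, 6.07 and 4.36 CPM in WT-ctrl and at 1.98, 1.75, 1.74 and 1.3 CPM in WT-des. The highest WT-des library lay below the lowest WT-ctrl library at either generation. Over both generations the level was 1.75 ± 0.367 CPM in WT-des (SD, n = 8) and 5.23 ± 0.787 CPM in WT-ctrl (SD, n = 7), a difference that the raw counts give as 28 to 58 against 71 to 139 per library. The log2 fold change was −1.57 (SE 0.157, adjusted p = 0.000181, edgeR's quasi-likelihood test with Benjamini-Hochberg adjustment), with a 95% interval of −1.90 to −1.24. It was −1.55 (SE 0.223) at F3 and −1.59 (SE 0.239) at F5. Tested at each generation alone, *fbxa-192* passed at F3 (adjusted p = 0.00702) and not at F5 (adjusted p = 0.0737), where 3 control libraries entered. In edgeR, 0.0452% of genes passed the adjusted test at F3 alone, 7 in all, and 0% at F5 alone, with 272 and 230 genes at an unadjusted p under 0.05.

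To be called, a gene needed an adjusted p under 0.05 together with a log2 difference of more than 1 upwards or downwards, the thresholds of the study. In the lower direction 0.00646% of the genes tested were called, which is *fbxa-192* alone, and in the higher direction 0% were. At an unadjusted p under 0.05, 200 genes were higher in WT-des (1.29%) and 219 were lower (1.42%). Together these are 2.71% of the genes tested, a smaller share than chance alone would give at that threshold. The count of genes called depends on the tool. limma also called *fbxa-192* and no other gene, 0 higher and 1 lower, with libraries of the same descent and replicate number as a random block. The consensus correlation within these blocks was 0.104. Whether a block is 1 line sampled at both generations is not known. DESeq2 called 5 genes at the same thresholds: *dpy-17* higher, and *fbxa-192*, *C08F11.7*, *kvs-4* and *F35E12.5* lower. Without the fold threshold edgeR still passed *fbxa-192* only, and DESeq2 added *cls-3* and *fbxa-108*.

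**Figure D1:**
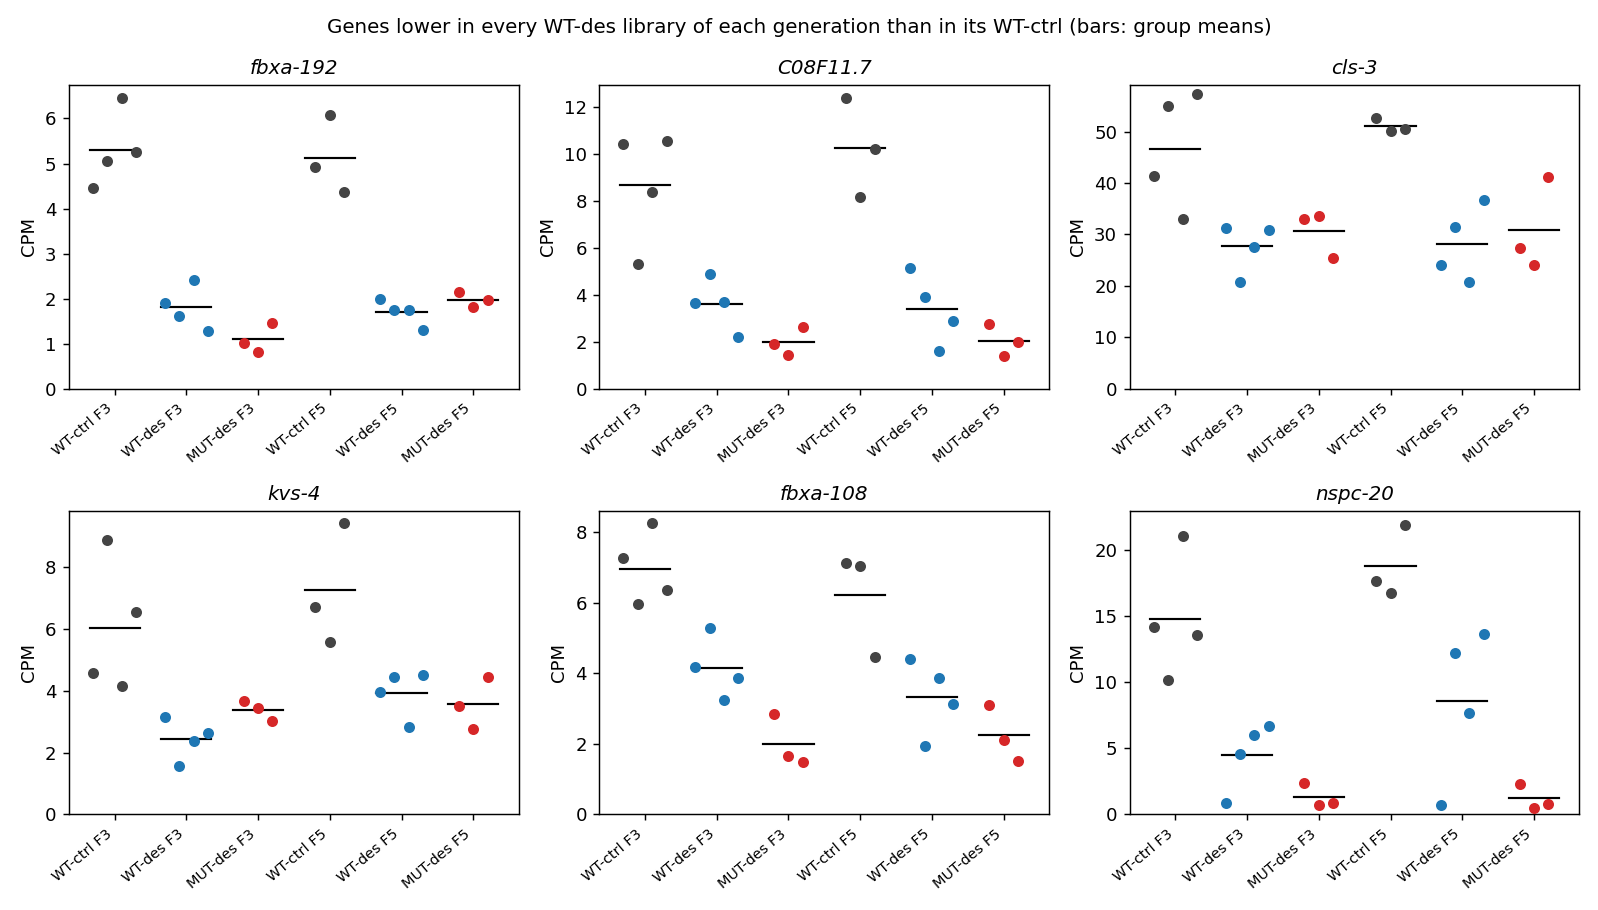
Levels in CPM of the 6 genes whose WT-des libraries all lay below WT-ctrl at each generation, by group and generation, with MUT-des beside them. Points are libraries and bars are group means, and for *fbxa-192* every WT-des library lies below every WT-ctrl library.

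A rule without a model gave a short list of further genes. In 6 genes (0.0388% of those tested) all WT-des libraries lay below all WT-ctrl libraries at F3 and again at F5: *fbxa-192*, *C08F11.7*, *cls-3*, *kvs-4*, *fbxa-108* and *nspc-20*. In 3 genes (0.0194%) all lay above, namely *dpy-17*, *dyf-17* and *T23G11.10*. Descent can be assigned to these libraries within generation in 2450 ways. For a gene without a difference, a single assignment separates them downwards and another upwards. Counts of this size among the 15472 genes tested can therefore arise by chance alone. This rule was added after the values were seen, and of its 9 genes *fbxa-192* alone passed the adjusted test of edgeR. With DESeq2, *C08F11.7* (adjusted p = 1.1e-05), *cls-3* (0.000421), *kvs-4* (0.000421), *dpy-17* (0.000518) and *fbxa-108* (0.0176) passed as well.

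*C08F11.7*, a protein-coding gene of chromosome IV, came second by p. It stood at 10.4, 5.29, 8.37 and 10.6 CPM in WT-ctrl F3 and at 3.64, 4.89, 3.7 and 2.22 CPM in WT-des F3. At F5 it stood at 12.4, 8.17 and 10.2 CPM in WT-ctrl and at 5.15, 3.88, 1.61 and 2.89 CPM in WT-des. The groups come close at F3, where the lowest control library was only just above the highest descendant library. The log2 fold change was −1.42 (SE 0.229), with an adjusted p of 0.0688 in edgeR, over the threshold. With WT-ctrl F3 replicate 2 left out it was −1.51 and the adjusted p was 0.0226, with WT-des F5 replicate 1 left out the adjusted p was 0.0429, and with WT-des F5 replicate 3 left out it was 0.0484 in edgeR.

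*fbxa-108* is another F-box gene of the same family and is the next protein-coding gene after *fbxa-192* on chromosome V in the RefSeq annotation of WBcel235. In WT-ctrl F3 it stood at 7.27, 5.97, 8.28 and 6.37 CPM, and in WT-des F3 at 4.19, 5.29, 3.24 and 3.86 CPM. At F5 the values were 7.13, 7.04 and 4.47 CPM in WT-ctrl and 4.4, 1.94, 3.87 and 3.13 CPM in WT-des, with no overlap but a gap under 0.1 CPM between the nearest libraries. The log2 fold change of *fbxa-108* was −0.81 (SE 0.173, adjusted p = 0.449 in edgeR). Of the 10 protein-coding genes on each side of *fbxa-192*, 3 others could be tested. None of them had an unadjusted p under 0.05 in edgeR. These were the triglyceride synthesis gene *dgat-2* (−0.29 log2, SE 0.184), *F59A1.11* (−0.42, SE 0.324) and *F59A1.15* (0.01, SE 0.105). Reads of near-identical F-box genes can be shared, and how reads that map to several places were counted is not given in the sources used here.

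Among the other genes of the non-overlap rule, *cls-3* and *kvs-4* lie on chromosome III, as *set-2* does. *cls-3* encodes a CLASP-family microtubule-binding protein and was the most abundant of the 6, at 27.9 ± 5.7 CPM in WT-des (SD, n = 8) against 48.6 ± 8.5 CPM in WT-ctrl (SD, n = 7). Its WT-des libraries ranged from 20.7 to 36.7 CPM and its WT-ctrl libraries from 33 to 57.3 CPM, so the ranges overlapped once the generations were put together. The log2 fold change of *cls-3* was −0.80 (SE 0.143, adjusted p = 0.143 in edgeR), at −0.75 for F3 and −0.86 for F5. *kvs-4*, which encodes a voltage-gated potassium channel subunit, stood at 1.57 to 3.17 CPM in WT-des F3 against 4.14 to 8.89 CPM in WT-ctrl F3. At F5 *kvs-4* stood at 2.83 to 4.52 CPM in WT-des against 5.59 to 9.43 CPM in WT-ctrl. Its log2 fold change was −1.11 (SE 0.203, adjusted p = 0.148 in edgeR). In WBcel235, *kvs-4* overlaps 3 other genes and *cls-3* overlaps 1, and the libraries hold no strand information, so their reads cannot be told apart from those of their partners where they overlap.

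The non-mutant descendants can be set beside their mutant relatives. In MUT-des, *fbxa-192* stood at 1, 0.821 and 1.45 CPM at F3 and at 2.15, 1.81 and 1.97 CPM at F5, within or near the range of WT-des. Against WT-ctrl the difference was −1.84 log2 (SE 0.179, adjusted p = 2.62e-05 in edgeR), and against WT-des it was −0.26 (SE 0.175, adjusted p = 0.848). This MUT-des comparison uses the same control libraries as the WT-des comparison, so the pair of differences is not independent. Of all genes tested, 0.176% were called between MUT-des and WT-ctrl, and 0.12% between MUT-des and WT-des. *C08F11.7* stood at 1.37 to 2.77 CPM in the 6 MUT-des libraries, −2.25 log2 against WT-ctrl (adjusted p = 0.000256 in edgeR). For *fbxa-108* the MUT-des difference from WT-ctrl was −1.65 (adjusted p = 0.000592 in edgeR), while for *cls-3* it was −0.69 (adjusted p = 0.0882) and for *kvs-4* −0.95 (adjusted p = 0.0578).

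The same genes were read in *set-2* mutants that had not been crossed. In F1 L4 progeny of 1-day-old adults *fbxa-192* stood at 7.45 ± 1.14 CPM in *set-2* (SD, n = 4) and 6.92 ± 1.74 CPM in wild type (SD, n = 4), a log2 difference of 0.09 (SE 0.232, adjusted p = 0.826 in edgeR). In that experiment 0.421% of genes tested were called. The corresponding differences were 0.35 for *C08F11.7* (adjusted p = 0.573 in edgeR), 0.37 for *fbxa-108* (adjusted p = 0.355) and −1.12 for *cls-3* (adjusted p = 0.115). For *kvs-4* the difference was 0.03 (adjusted p = 0.953 in edgeR) and for *nspc-20* 0.77 (adjusted p = 0.13). Wild type there held 2 ± 0.941 CPM of *C08F11.7*, 11 ± 3.61 CPM of *fbxa-108* and 27.2 ± 12.8 CPM of *cls-3* (SD, n = 4). It held 2.36 ± 0.118 CPM of *kvs-4* and 22.2 ± 5.53 CPM of *nspc-20*. This comparison was added after the outcross values were seen, and levels are not compared across the experiments.

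Genes with the smallest p were not spread over the chromosomes as all tested genes were. Of the 77 genes with an unadjusted p under 0.01 in the pooled edgeR test (0.498% of those tested), 76 were placed on a chromosome of WBcel235, and 32 of them (42.1%) lie on chromosome V, which holds 20.1% of the genes tested. Chromosome III, which carries *set-2*, holds 6 of them (7.89%) and 15.2% of the genes tested. Genes of a family often neighbour each other, as the cyp-35A genes do on chromosome V, so the 32 genes are not independent observations. The 77 genes are also a smaller share of those tested than chance alone would give at that p. The share on chromosome V was not tested, and neither was any part that the *oyIs14* reporter on the same chromosome has in it.

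**Figure D2:**
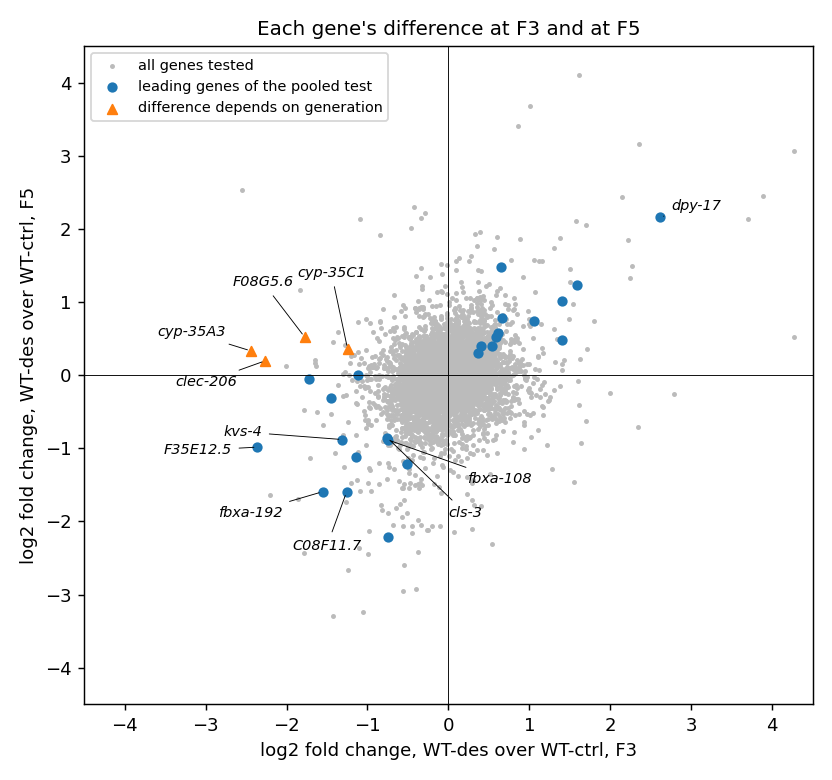
Log2 fold change of WT-des over WT-ctrl at F3 (x axis) and at F5 (y axis) for each gene tested, with the leading genes of the pooled test and the genes whose difference depended on generation marked. 3 genes lie beyond 4.5 on an axis, *fbxa-192* lies at −1.55 and −1.59, and *cyp-35A3* at −2.44 and 0.33.

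The F3 and the F5 comparison share no library, so they can be read side by side. Over all 15472 genes the log2 differences had the same sign at both generations in 61.7%, with a Pearson r of 0.304 and a Spearman rho of 0.281 across genes, which are not independent replicates. Over the 12125 genes averaging 50 counts or more the share was 63.8% and r was 0.38. Of the 61 genes with an unadjusted p under 0.01 at F3 (0.394% of those tested), 49.2% had the same sign at F5, and of 35 such genes at F5 (0.226%), 65.7% had the same sign at F3. In a principal component analysis of log2 CPM, centred within generation, PC1 held 30.5% of the variance and WT-des minus WT-ctrl was 11.97 (p = 0.457, two-sided exact permutation test of descent within generation). PC2 held 14.3% and differed by 4.222 (p = 0.691, the same exact test). Along PC1 the libraries of 1 group spread far wider than the groups differed, with SDs from 17.29 in WT-des F3 to 43.17 in WT-des F5. Neither component separated the descents beyond the spread between libraries.

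For a handful of genes the difference between descents depended on the generation, and in each it was the larger at F3. The change of the difference from F3 to F5 was tested as an interaction, and 4 genes passed an adjusted p under 0.05 (0.0259% of those tested): *cyp-35A3*, *cyp-35C1*, *clec-206* and *F08G5.6*. These genes were named for passing this test and fall outside the other naming rules. *cyp-35A3* and *cyp-35C1* encode cytochrome P450 enzymes of the CYP-35 family, which are known to be induced in the intestine by foreign compounds and to act in fat storage. *clec-206* encodes a protein with a C-type lectin domain, and *F08G5.6*, now *irg-4*, is a gene that responds to infection.

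*cyp-35A3* stood at 66.1, 70.7, 67.7 and 61.5 CPM in WT-ctrl F3 and at 15.2, 8.76, 11.5 and 13.5 CPM in WT-des F3. At F5 it stood at 45.8, 52.7 and 75.6 CPM in WT-ctrl and at 55.2, 90.9, 61.4 and 84.6 CPM in WT-des. The descendants were thus far below the controls at F3 and overlapped them at F5, with log2 differences of −2.44 and 0.33. The interaction was 2.77 (SE 0.301, adjusted p = 0.00107 in edgeR). In MUT-des F3 the same gene stood at 11, 95.1 and 9.33 CPM, so replicate 2 was above the controls and the others were as low as WT-des.

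*cyp-35C1* stood at 126 to 157 CPM in WT-ctrl F3 and at 46.4 to 66.3 CPM in WT-des F3, and at F5 at 89.3 to 137 CPM in WT-ctrl and 105 to 179 CPM in WT-des. Its interaction was 1.61 (SE 0.261, adjusted p = 0.0476 in edgeR). *clec-206* stood at 10.8 to 13.7 CPM in WT-ctrl F3 and at 1.62 to 3.28 CPM in WT-des F3, with an interaction of 2.46 (SE 0.374, adjusted p = 0.0291). *F08G5.6* stood at 46.4 to 52.1 CPM in WT-ctrl F3 and at 13.3 to 15.7 CPM in WT-des F3, with an interaction of 2.30 (SE 0.335, adjusted p = 0.0261). At F5 the WT-ctrl level of *F08G5.6* was itself lower, at 18.1 to 28.1 CPM, and the WT-des level was 19 to 48.6 CPM. Since F3 and F5 libraries are different samples, a change of the control level is part of each interaction. Leaving out 1 library at a time gave 1 to 4 passing genes, and *cyp-35A3* passed each time. In a fit of all 21 outcross libraries, MUT-des included, none passed, at an unadjusted p under 0.05 in 151 genes.

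**Figure D3:**
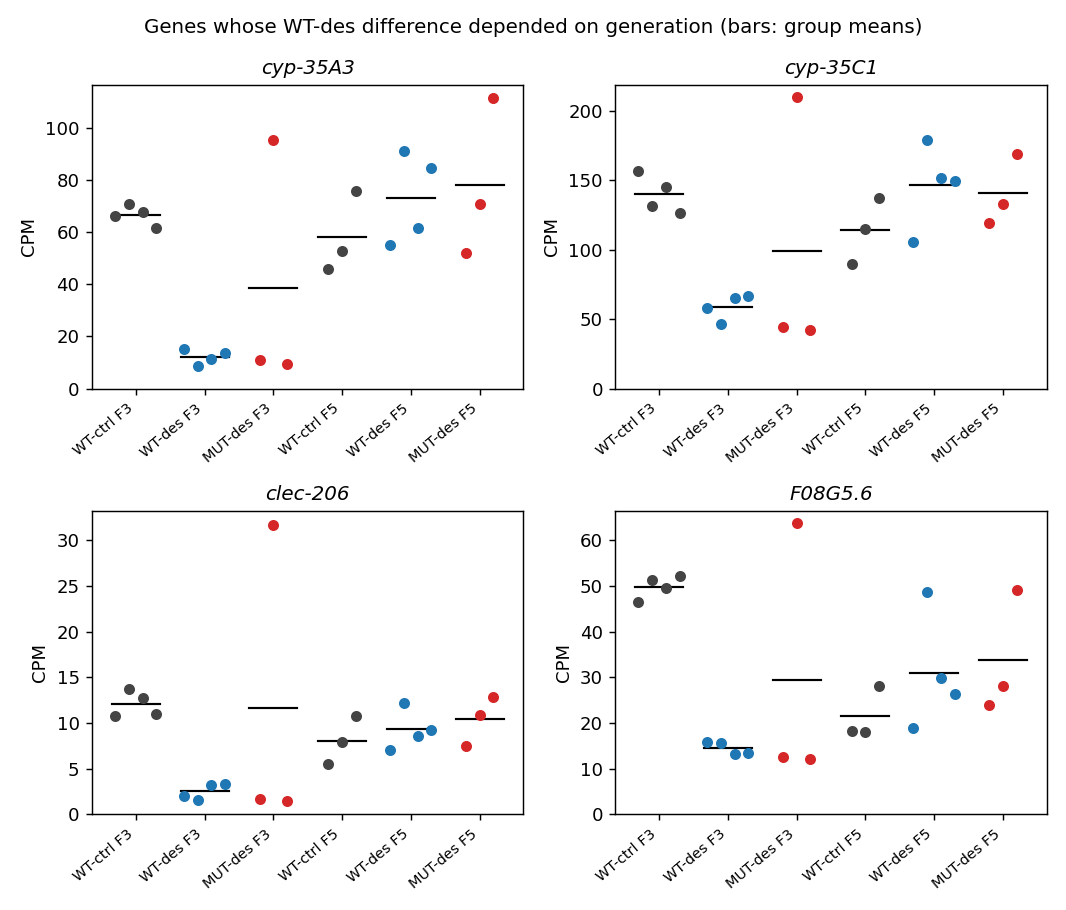
Levels in CPM of the 4 genes whose WT-des against WT-ctrl difference depended on generation, by group at F3 and F5, with points for libraries and bars for group means, MUT-des included. WT-des F3 lies below WT-ctrl F3 without overlap in each gene, as in *cyp-35A3* at 8.76 to 15.2 against 61.5 to 70.7 CPM, and at F5 the groups overlap.

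The 4 genes of the interaction test were each lower in WT-des at F3 alone, with adjusted p from 3.71e-05 to 0.00702 in edgeR, and 2 other genes of the CYP-35 family, *cyp-35A2* (adjusted p = 0.00702) and *cyp-35A4* (adjusted p = 0.0126), fell at F3 too. Together with *fbxa-192* these are the 7 genes that passed at F3. In the pooled test and in the interaction test of edgeR *cyp-35A2* and *cyp-35A4* did not pass, while the interaction passed for both with DESeq2 (adjusted p = 0.00381 and 0.035). *cyp-35A2* stood at 185 to 204 CPM in WT-ctrl F3 and at 69.9 to 102 CPM in WT-des F3, with differences of −1.12 at F3 and 0.01 at F5. For *cyp-35A4* the differences were −1.72 and −0.06, and for *cyp-35A1* −2.01 and 0.13. Of the 189 detoxification genes tested (cytochromes P450, glucuronosyl and glutathione transferases and short-chain dehydrogenases), 12 were lower and 5 higher at an unadjusted p under 0.05 in edgeR, with a median log2 difference of −0.05. That is 6.35% lower and 2.65% higher, where all genes have 1.42% and 1.29%. The median was −0.01 without WT-ctrl F3 replicate 2 and −0.09 without WT-ctrl F5 replicate 1. The summed level of the list was 4402 to 5200 CPM in WT-des F3 against 5351 to 5904 CPM in WT-ctrl F3, and the ranges overlapped at F5.

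The innate immunity list held 240 tested genes, of which 19 were lower and 6 higher at an unadjusted p under 0.05 in edgeR, and 74 lay above 0 with a median of −0.10. That is 7.92% lower, 2.5% higher and 30.8% above 0, where all genes have 1.42%, 1.29% and 50.1%. The median was −0.04 without WT-ctrl F5 replicate 4 and −0.17 without WT-des F5 replicate 2. *F35E12.5*, now *irg-5*, is another infection response gene, which the list did not hold under its older name. It stood at 4.75, 11.4, 8.6 and 13.3 CPM in WT-ctrl F3 and at 1.27, 1.94, 3.03 and 1.15 CPM in WT-des F3. At F5 it stood at 6.93, 6.07 and 5.73 CPM in WT-ctrl and at 1.19, 5.83, 4 and 1.75 CPM in WT-des, where replicate 2 overlapped the controls. Its log2 difference was −1.73 (SE 0.365, adjusted p = 0.449 in edgeR), and DESeq2 called it (adjusted p = 0.000723). MUT-des F3 replicate 2 held 24.9 CPM of *F35E12.5*, above every WT-ctrl library. *clec-258* (−1.14), *clec-47* (−0.65) and the saposin-like gene *spp-18* (−0.39) were the members of the list with the smallest unadjusted p, each with an adjusted p of 0.981 in edgeR.

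Members of the insulin pathway list were also among the lower values. *fat-5*, a fatty acid desaturase, stood at 28.5 to 57.5 CPM in WT-ctrl F3 and 13 to 49.9 CPM in WT-des F3, and at 28.9 to 78.6 CPM in WT-ctrl F5 and 15.7 to 28.7 CPM in WT-des F5. The difference was −1.03 (SE 0.301, adjusted p = 0.981 in edgeR). The related desaturase *fat-7*, from the intestine list, differed by −0.54 (SE 0.211), and *dod-24*, a gene repressed by the transcription factor DAF-16, by −0.72 (SE 0.214), both with an adjusted p of 0.981 in edgeR. Of the 23 dod and DAF-16 class genes tested, 4 were lower and none higher at an unadjusted p under 0.05 (17.4%, where all genes have 1.42%), with a median of −0.15 that ranged from −0.22 to −0.10 with 1 library left out.

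Most genes on the list of small nematode-specific peptides had low values in WT-des. Their functions are largely unknown. Of 31 tested, 5 lay above 0 and 7 were lower at an unadjusted p under 0.05 in edgeR, none higher, with a median log2 difference of −0.42 where all genes had a median of 0.000682. That is 22.6% lower, where all genes have 1.42%. The list does not hold *nspd-6*, a nematode-specific peptide gene that was placed among the other sperm genes. *nspd-6* was higher, at 0.30 log2 (SE 0.123, unadjusted p 0.0255 in edgeR). Without WT-ctrl F5 replicate 4 the median of the list was −0.18. Among the 14 nspc genes tested, 2 lay above 0 and 6 were lower at that threshold. *nspc-20* stood at 14.2, 10.2, 21.1 and 13.6 CPM in WT-ctrl F3 and at 0.87, 4.56, 5.98 and 6.66 CPM in WT-des F3. At F5 *nspc-20* stood at 17.7, 16.8 and 21.9 CPM in WT-ctrl and at 0.704, 12.2, 7.7 and 13.7 CPM in WT-des. Replicate 1 of WT-des held under 1 CPM at both generations. The difference was −1.44 (SE 0.463, adjusted p = 0.981 in edgeR), and in MUT-des, at 1.26 ± 0.839 CPM (SD, n = 6), it was −3.73 against the shared controls (adjusted p = 0.00634). *nspc-16*, *nspc-18*, *nspc-19* and *nspc-20* are neighbours on chromosome X. *nspc-17*, which lies among them, differed by −0.22 (SE 0.165, unadjusted p 0.202 in edgeR). As the family's members are similar in sequence, their reads may be shared.

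Higher in WT-des, *dpy-17* led by p. It encodes a cuticle collagen needed for normal body length. WT-ctrl held 2.58, 1.7, 2.05 and 2.02 CPM at F3 and 2.29, 1.29 and 1.64 CPM at F5. WT-des held 7.2, 4.48, 17.8 and 21.7 CPM of *dpy-17* at F3 and 3.21, 3.63, 19.9 and 3.95 CPM at F5. All WT-des libraries were above all WT-ctrl libraries, and 3 of them, F3 replicates 3 and 4 and F5 replicate 3, were far above the rest. The log2 difference was 2.42 (SE 0.458, adjusted p = 0.279 in edgeR).

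The same 3 libraries held the highest levels of other collagen genes. *dpy-14* stood at 19.4 CPM in WT-des F5 replicate 3 and at 16.6 CPM in WT-des F3 replicate 3, with WT-des F3 replicate 4 just below the latter, and at or below 1.25 CPM in every other library of the comparison. Its log2 difference was 3.21 and became −0.16 without these 3 libraries. *col-165* stood at 3.45, 0.621 and 4.61 CPM in those libraries and at or below 0.44 CPM in the others, so the library at 0.621 CPM was close to the rest. The O-acyltransferase gene *oac-51* showed them at 1.08, 1.02 and 1.09 CPM. Without the 3 libraries, a choice made after the values were seen, *dpy-17* differed by 1.27 with an adjusted p of 0.0629 in edgeR. Collagen genes are switched on in waves within each larval moult cycle, and differences in stage between libraries were not tested.

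**Figure D4:**
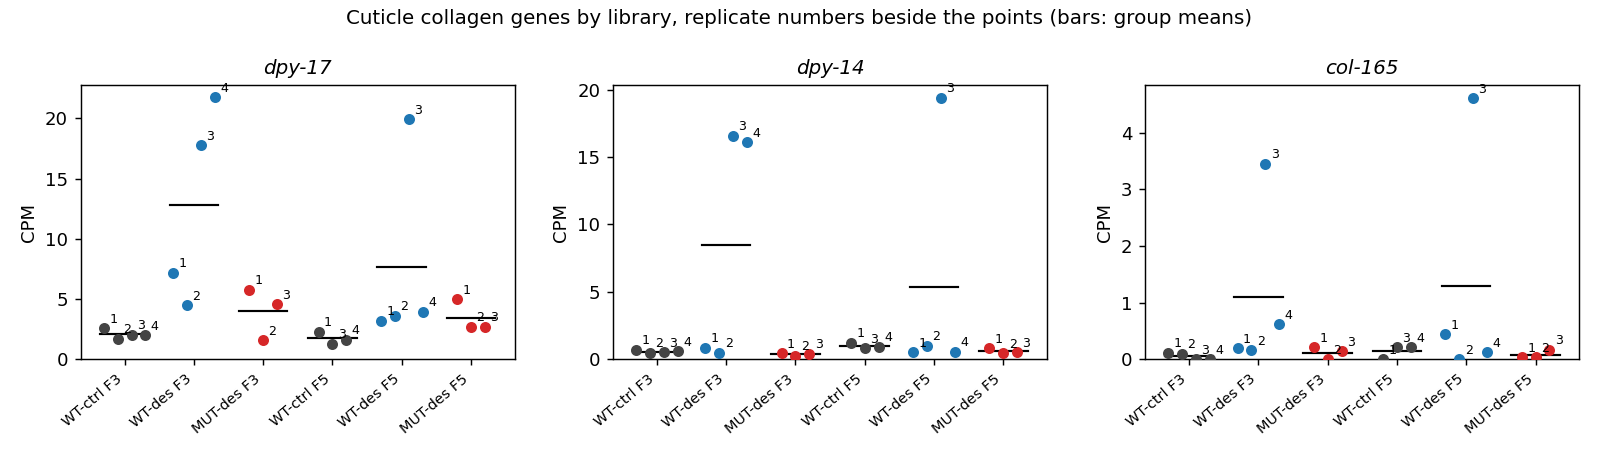
Levels in CPM of the cuticle collagen genes *dpy-17*, *dpy-14* and *col-165* by group and generation, with a point and its replicate number for each library and bars for group means. The 3 WT-des libraries with *dpy-14* at up to 19.4 CPM are the same as those with *dpy-17* at 17.8 to 21.7 CPM.

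Over the whole collagen list, 43 of 160 tested genes lay above 0, with a median of −0.10, or −0.13 without the 3 libraries. It was −0.02 with WT-ctrl F5 replicate 4 left out and −0.15 with WT-des F3 replicate 4 left out. 7 collagens were higher at an unadjusted p under 0.05 in edgeR and none was lower (4.38% and 0%, where all genes have 1.29% and 1.42%), so the direction of those 7 differs from that of the list's median. Summed collagen levels spanned 55287 to 95632 CPM in WT-des F3 and 60896 to 101237 CPM in WT-ctrl F3. In the molting list 7 of 22 lay above 0, with *mlt-7*, a peroxidase of the cuticle, at −0.64 (SE 0.232) and a list median of −0.04. The median of the molting list turned to 0.01 without the 3 libraries. Of 65 hedgehog-related genes, many of them expressed in the epidermis, 26 lay above 0, none had an unadjusted p under 0.05, and the median was −0.09.

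Further genes were higher in WT-des, by 0.34 to 1.42 on the log2 scale. *Y26D4A.12* stood at 3.64 to 3.82 CPM in WT-des F3 and 2.18 to 2.7 CPM in WT-ctrl F3, at 0.60 log2 over both generations (SE 0.142). *F36D3.1* stood at 7.89 to 21.1 CPM in WT-des F3 against 4.75 to 6.46 CPM in WT-ctrl F3, and overlapped at F5. Its difference was 0.97 (SE 0.246), and 1.02 between MUT-des and the shared controls (adjusted p = 0.0465 in edgeR). The astacin protease gene *nas-24* differed by 0.98 (SE 0.282), *T04D3.5* by 0.91 (SE 0.266), *T09B9.4* by 0.72 (SE 0.213) and the nuclear receptor gene *nhr-172* by 1.25 (SE 0.385). Levels of *nas-24* and *nhr-172* were low, with WT-ctrl means of 0.459 and 0.574 CPM. *W02B8.2*, now *citk-1*, differed by 1.42 (SE 0.409), with WT-des libraries from 6.43 to 45.7 CPM against 6.29 to 9.07 CPM in WT-ctrl. *dyf-17*, a gene for sensory cilia, stood at 3.65 to 5.41 CPM in WT-des against 1.83 to 3.52 CPM in WT-ctrl, a log2 difference of 0.48 (SE 0.145). *T23G11.10* differed by 0.56 (SE 0.172), *C01B12.8*, now *enee-1*, by 0.34 (SE 0.1) and *Y38F2AR.10* by 0.40 (SE 0.127). The adjusted p of each gene of this paragraph in the pooled edgeR test was 0.981.

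The remaining lower values by the rule were *Y34F4.2*, now *clc-24* of the claudin-like family, at −0.84 (SE 0.203), *Y39B6A.1* at −1.13 (SE 0.286), the aspartyl protease gene *asp-12* at −1.44 (SE 0.377) and *nspc-13* at −0.91 (SE 0.241). *asp-12* stood at 11 to 13.2 CPM in WT-des F5 and at 33.3 to 99.7 CPM in WT-ctrl F5, while at F3 the groups overlapped, with WT-ctrl replicate 1 at 7.09 CPM. *Y39B6A.1* was abundant, at 101 to 321 CPM in WT-des and 171 to 561 CPM in WT-ctrl. Each of these had an adjusted p of 0.981 in edgeR.

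**Figure D5:**
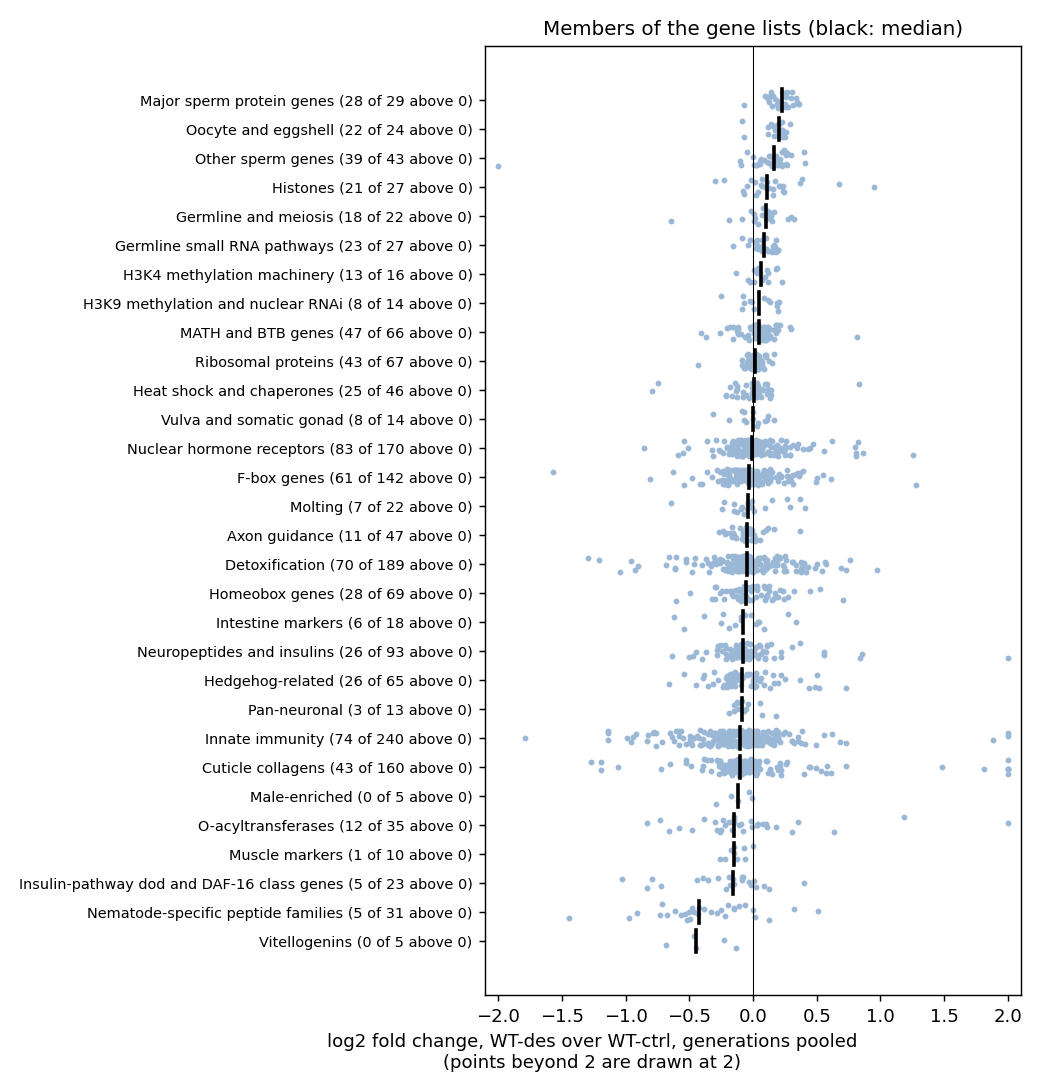
Log2 fold change of WT-des over WT-ctrl, generations pooled, for the tested members of each of the 30 gene lists (points) with the list's median (black line). The medians run from −0.45 for the 5 vitellogenins to 0.23 for the 29 major sperm protein genes, and points beyond 2 are drawn at 2.

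The size of most list medians depended on single libraries. With 1 library left out at a time, 28 of the 30 medians moved by over 1.5 times at least once. The sign changed for 8, among them those of the F-box, molting, homeobox, heat shock and vitellogenin lists, and stayed the same for 22. Over all genes tested 7757 of 15472 lay above 0.

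Sperm and oocyte genes had slightly higher values in WT-des. Major sperm proteins are the main cytoskeletal proteins of nematode sperm, made at this stage in the hermaphrodite gonad. Of 29 tested, 28 lay above 0 and 6 had an unadjusted p under 0.05 in edgeR, all higher, with a median of 0.23 (0.17 at F3 and 0.30 at F5). That is 20.7% higher and 96.6% above 0, where all genes have 1.29% and 50.1%. *msp-57* stood at 160 to 224 CPM in WT-des F3 against at most 187 CPM in WT-ctrl F3, and differed by 0.37 (SE 0.149). The summed level of the list was 3964 to 4984 CPM in WT-des F3 and 2722 to 4745 CPM in WT-ctrl F3, and at F5 4955 to 5588 CPM against 3138 to 6036 CPM, so the groups overlapped at both generations. Among other sperm genes 39 of 43 lay above 0 with a median of 0.17, 2 higher and 1 lower at an unadjusted p under 0.05. That is 4.65% higher and 2.33% lower, where all genes have 1.29% and 1.42%. In oocyte and eggshell genes 22 of 24 lay above 0 with a median of 0.20 and none under that p. The oocyte median was 0.29 at F3 and 0.09 at F5. The summed level of the oocyte list was 2691 to 5278 CPM in WT-des F3 and 3318 to 4118 CPM in WT-ctrl F3. At F5 it was 2862 to 4034 CPM against 2060 to 4965 CPM, so the groups overlapped at both generations. Members of these lists rise and fall together in a library and are near-identical in the sperm protein family, so their number is not a number of independent observations. More germ cells of a type and more RNA per cell cannot be told apart in whole animals. The medians of these 3 lists stayed above 0 when any 1 library was left out, from 0.15 (WT-ctrl F5 replicate 4) to 0.36 (WT-ctrl F5 replicate 1) for the major sperm proteins and from 0.09 (WT-des F3 replicate 2) to 0.41 (WT-ctrl F5 replicate 1) for the oocyte list.

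Germline and meiosis genes had a median of 0.10, with 18 of 22 above 0, and *fog-3*, which directs germ cells to the sperm fate, stood at −0.64 (SE 0.238, unadjusted p 0.015 in edgeR). Germline small RNA pathway genes had a median of 0.08, with 23 of 27 above 0, and none had an unadjusted p under 0.05. Vitellogenins, the yolk proteins made in the intestine, all lay below 0, with a median of −0.45, none had an unadjusted p under 0.05, and the median turned to 0.09 without WT-ctrl F5 replicate 4. Their summed level varied from 582 to 11079 CPM over the WT-ctrl libraries.

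Chromatin genes had small differences. Of 16 tested genes of the H3K4 methylation machinery, 13 lay above 0 with a median of 0.06, and of 14 of H3K9 methylation and nuclear RNAi, 8 lay above 0 with a median of 0.05. In neither list was any gene under an unadjusted p of 0.05 in edgeR. Histone genes had a median of 0.11 with 21 of 27 above 0. *his-48* (0.68, SE 0.237) and *his-32* (0.95, SE 0.344) were higher at an unadjusted p under 0.05, both at under 3 CPM. The large F-box family, to which *fbxa-192* belongs, had a median of −0.03 over 142 tested genes, with 61 above 0, 1 higher and 3 lower at an unadjusted p under 0.05, or 0.704% and 2.11% where all genes have 1.29% and 1.42%. The F-box median ranged from −0.07 (without WT-des F3 replicate 2) to 0.01 (without WT-ctrl F3 replicate 3). MATH and BTB genes, which also act as ubiquitin ligase adaptors, had a median of 0.05 with 47 of 66 above 0.

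The study set out from defects of a neuron's axon, and no gene of the neuronal lists passed the adjusted test. Of 47 axon guidance genes tested, 11 lay above 0, with a median of −0.04 and none under an unadjusted p of 0.05. Pan-neuronal genes had 3 of 13 above 0 and a median of −0.09, and neuropeptide and insulin genes 26 of 93 and a median of −0.08, with 4 higher and 3 lower at an unadjusted p under 0.05. That is 4.3% higher and 3.23% lower in the neuropeptide and insulin list, where all genes have 1.29% and 1.42%. Its median was −0.18 at F3 and 0.04 at F5. *nlp-32*, a neuropeptide-like gene of that list, was at 0 counts in all WT-ctrl F3 libraries and at no more than 1.32 CPM elsewhere. Homeobox genes had 28 of 69 above 0 and a median of −0.05.

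Markers of other tissues gave small shifts. In muscle 1 of 10 lay above 0 with a median of −0.15, in intestine 6 of 18 with −0.08, in the vulva and somatic gonad 8 of 14 with 0.000997, and in the male-enriched list 0 of 5 with −0.12, at a summed 18.5 to 35.5 CPM over all libraries. The muscle median was −0.28 at F3 and 0.04 at F5, so its sign was not shared by the generations. Heat shock and chaperone genes had 25 of 46 above 0 and a median of 0.01, with *hsp-12.3* at −0.79 (SE 0.245) and *hsf-2* at 0.83 (SE 0.294). *hsf-2* is annotated as a pseudogene and had means of 0.811 CPM in WT-des and 0.466 CPM in WT-ctrl. Its difference was 1.16 at F3 and 0.37 at F5. O-acyltransferases had 12 of 35 and a median of −0.15. Nuclear hormone receptors had 83 of 170 and a median of −0.01, which turned to 0.01 with library totals in place of TMM factors. Ribosomal protein genes had 43 of 67 and a median of 0.02. The part that tissue or stage composition has in any of the differences above was not tested.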

How the data were processed

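Per the labels and the methods of the study, poly(A) RNA libraries without strand information were sequenced, and the authors trimmed reads, aligned them to WS220 (ce10) with RNA STAR and counted them per gene with htseq-count. The deposited values are raw counts per gene, 45410 entries per library, of which 3758 are named by a transcript only. A total of 43891 were matched by name to the RefSeq annotation of WBcel235, used for names, chromosomes and gene order. As the builds differ, no coordinates are printed.

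Counts of 15 libraries were scaled by TMM factors and filtered with the default filter of edgeR over the 4 groups, which left 15472 genes. They were tested in R 4.3.3 with the robust quasi-likelihood test of edgeR 4.0.16, with generation as a block and Benjamini-Hochberg adjustment. The interaction and the values of each generation came from a fit of group means. MUT-des values came from a fit of 21 outcross libraries over 15872 genes, and the experiment without a cross from a fit of 8 libraries over 14002 genes. Principal components used log2 CPM with a prior count of 2. Alternatives used DESeq2 1.42.0, limma 3.58.1 with statmod 1.5.0, other scaling, other filters, thinned counts and left-out libraries. The scripts were tested on simulated data.

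Named are called genes, 12 genes with the smallest p in each direction, up to 3 members of each list with an unadjusted p under 0.05, and genes of the interaction or of the non-overlap rule. The 30 gene lists are described by counts and medians, with no set test. The members, lists and tests were chosen with earlier results of these data known. Not every gene of the rule is named. The remaining libraries of the series, the chromatin data and the scoring of neurons are not analysed here.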

Additional observations from a re-analysis of the deposited data

Results flagged for a closer look

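The 4 genes of the interaction test were singled out because their WT-des against WT-ctrl difference at F5 was tested against that at F3. The change on the log2 scale was 2.77 for *cyp-35A3*, 2.46 for *clec-206*, 2.3 for *F08G5.6* and 1.61 for *cyp-35C1*, each positive, with adjusted p from 0.00107 to 0.0476 in edgeR. *cyp-35A3*, *cyp-35C1* and *clec-206* lie on chromosome V and *F08G5.6* on chromosome IV.

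In groups of 4 libraries, the gap of the farthest library to its nearest neighbour was compared with the group's range. The 94 groups came from the leading genes, the interaction genes, the components and the total counts. WT-ctrl F5 replicate 2 was included for the total counts, and the other named genes were not covered. The gap passed the critical value of Dixon's test in 7 of the 94 groups, 7.45%, where chance gives about 5%. *dpy-17* stood at 19.9 CPM in WT-des F5 replicate 3, with the others at 3.21 to 3.95 CPM. *asp-12* stood at 24.2 CPM in WT-des F3 replicate 3 (others 8.68 to 10.3 CPM) and at 11 CPM in WT-des F5 replicate 1 (others 12.9 to 13.2 CPM). *Y34F4.2* stood at 10.1 CPM in WT-ctrl F3 replicate 4 (others 9.14 to 9.28 CPM), and *Y38F2AR.10* at 15.2 CPM in the same library (others 21 to 21.4 CPM). *dyf-17* stood at 5.41 CPM in WT-des F3 replicate 4 (others 4.07 to 4.19 CPM). Along PC1, WT-ctrl F3 replicate 3 scored 27.6, with the others from −21.9 to −16.6.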

How the results depend on the processing

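*fbxa-192* was called in each of the 27 other settings run, at log2 differences from −1.78 to −1.48 and adjusted p from 3.25e-16 (DESeq2) to 0.0144 (16 libraries). Genes called rose from 1 to 3 with no filter (4 of any fold; *C08F11.7* and *kvs-4* join, and *cls-3* of any fold), to 2 in the 21-library fit (*C08F11.7* joins), to 2 with group means weighted equally (*cyp-35A3* joins), and to 5 with DESeq2, 1 higher and 4 lower (7 of any fold). Leaving out 1 library gave 1 to 2 called and 1 to 2 of any fold. The interaction passed 4 genes, 9 with DESeq2, 0 in the 21-library fit, 2 without the 3 libraries with the highest *dpy-14* (chosen after seeing the data) and 1 to 4 with 1 library left out. Components were refitted at each setting, with the sign set so that scores correlated positively with the main fit over shared libraries. A change of sign is therefore a reversed difference along the refitted component. The PC2 difference of 4.222 was −10.52 with 16 libraries (p = 0.456, exact permutation) and ranged from −2.749 (without WT-des F3 replicate 1) to 15.85 with 1 library left out, and the PC1 difference from 1.297 to 21.51. Of the alternatives for single named genes 1714 kept direction and side of the threshold, 11 passed it newly and 1 reversed, *dpy-14* at −0.16 without the 3 libraries. The causes were not tested.

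With the replicate number as a block, 1 gene was called, 1 passed at any fold and 3 passed the interaction. The numbers were not taken to pair the samples, since not every same-numbered pair correlated above 0.1. Same-numbered WT-des and WT-ctrl libraries correlated at −0.0167 to 0.0701 at F3 and 0.00805 to 0.166 at F5, and same-numbered F3 and F5 libraries at −0.209 to 0.325 in WT-des (3 of 4 above 0.1, against 3 of 12 with different numbers) and −0.0267 to 0.305 in WT-ctrl (2 of 3, against 2 of 9). Whether a line was sampled at both generations is not settled by this. The median SE of a gene's difference was 0.158, with 12 residual degrees of freedom.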
